A study of Mus musculus with 12 samples.

Results

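Mitochondrial ATP synthase is the enzyme of the inner mitochondrial membrane that makes ATP while protons flow back through it into the matrix. Protons turn a ring in the membrane, the central stalk carries that rotation into a catalytic head, and a peripheral stalk holds the head still. Most subunits are encoded in the nucleus, and a pair in mitochondrial DNA. The genes described here encode 10 of the nuclear subunits and were chosen by name: Atp5a1 and Atp5b of the head, Atp5c1, Atp5d and Atp5e of the central stalk, Atp5f1, Atp5h, Atp5j and Atp5o of the peripheral stalk, and Atp5k of the membrane part. They are 10 of the 21125 genes in the table and hold 63 of its 67355 rows, since a gene can have several rows. Rows were summed per gene symbol, and single rows were also examined.

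The study measured RNA by sequencing in microglia, the resident macrophages of the brain, which were sorted by flow cytometry from mouse midbrain. The label KO stands for the genotype Ppargc1a FF CreER, with a conditional Ppargc1a allele and a tamoxifen-inducible recombinase, and WT for Ppargc1a FF, the conditional allele without the recombinase. The 4 groups were KO MPTP, KO PBS, WT MPTP and WT PBS, with 3 samples each in the labels, and all samples, WT included, are labelled as 6 weeks after tamoxifen. MPTP is a toxin of dopaminergic neurons, PBS was given to the controls, and Ppargc1a encodes a transcriptional coactivator known for raising nuclear genes of the respiratory chain and ATP synthase through DNA-binding factors such as NRF1 and ESRRA. The labels and the design text used here name the groups only this far: the promoter that drives CreER, the animals' age and sex, the MPTP schedule and any pooling are not stated in them. Nor do they say that the samples of each group were separate animals, so a p-value here covers the spread between profiles only, and that spread may be technical.

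The deposited columns were not 12 separate measurements. The third column of each group equalled 0.1 plus 0.99 times the mean of its first and second columns, WT MPTP 2 equalled 1.02 times WT MPTP 1, and KO MPTP 1 equalled 1.02 times KO PBS 2, to rounding, in all but 49 of the 67355 rows. This leaves 6 separate profiles: KO MPTP 2, KO PBS 1, KO PBS 2, WT MPTP 1, WT PBS 1 and WT PBS 2. The profile of KO PBS 2 stands under both treatments, so it was left out of the comparisons of the 4 groups and used only where KO was compared with WT. Values were taken as FPKM, fragments scaled to transcript length and to all mapped fragments, and summed to between 388861 and 434022 per column, with the read depth unknown. Ppargc1a had 0.22, 0.42 and 0.51 FPKM in KO MPTP, 0.33, 0.12 and 0.42 FPKM in KO PBS, 2.72, 2.83 and 2.95 FPKM in WT MPTP, and 5.7, 6.21 and 5.6 FPKM in WT PBS. Among microglial markers Cd68 averaged 479 FPKM and Tyrobp 433 FPKM over the 6 profiles, but Tmem119 averaged 2.02, P2ry12 0.19, Cx3cr1 0.05 and Siglech 0.03 FPKM and Sall1 was listed at 0.0 FPKM, so the last 4 of these markers of resident microglia were at or near 0 and Tmem119 was low. C1qa (1.49 FPKM) and Aif1 (7.87 FPKM) were low as well, while other genes of macrophages were abundant. The summed level of 12 microglial markers lay between 1162.1 and 1316.0 FPKM in the 6 profiles, and that of the neuronal markers found in the table between 2.5 and 2.8 FPKM. Nearly all of the microglial sum came from Cd68, Tyrobp, Trem2 (127 FPKM on average), Csf1r (117 FPKM) and Itgam (81 FPKM), and little from the low markers. The vessel markers summed to between 82.1 and 90.5 FPKM, nearly all of it Flt1 (86.9 FPKM on average), and the markers of dopaminergic neurons, astrocytes, oligodendrocytes and their precursors, lymphocytes, erythroid cells and granulocytes each to at most 5.8 FPKM.

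The promoters of Atp5h and Atp5e are shown as examples of the 6 genes that were lower in every profile other than WT PBS. The others of these 6 were Atp5a1, Atp5b, Atp5d and Atp5o. The promoter of Atp5f1 is shown because it encodes the peripheral stalk partner of the Atp5h product and had profiles that overlapped between groups. Each line gives the 250 bases before the gene's RefSeq start on its own strand, 5′ to 3′, from GRCm38.p6, with matches to the searched motifs in capitals. The genes lie on chromosome 11 (Atp5h), chromosome 2 (Atp5e) and chromosome 3 (Atp5f1). No coordinates are given, because the deposited values were made with the build mm9.
Atp5h: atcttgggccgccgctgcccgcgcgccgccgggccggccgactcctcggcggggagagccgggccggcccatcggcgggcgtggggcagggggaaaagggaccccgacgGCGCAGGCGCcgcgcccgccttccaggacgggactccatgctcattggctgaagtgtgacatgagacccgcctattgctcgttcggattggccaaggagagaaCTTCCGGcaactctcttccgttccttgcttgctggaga
Atp5e: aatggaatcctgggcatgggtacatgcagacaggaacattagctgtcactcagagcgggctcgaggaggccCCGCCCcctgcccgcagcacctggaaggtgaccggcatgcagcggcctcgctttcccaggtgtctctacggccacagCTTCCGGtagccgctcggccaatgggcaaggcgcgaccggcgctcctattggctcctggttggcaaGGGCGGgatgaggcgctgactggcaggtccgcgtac
Atp5f1: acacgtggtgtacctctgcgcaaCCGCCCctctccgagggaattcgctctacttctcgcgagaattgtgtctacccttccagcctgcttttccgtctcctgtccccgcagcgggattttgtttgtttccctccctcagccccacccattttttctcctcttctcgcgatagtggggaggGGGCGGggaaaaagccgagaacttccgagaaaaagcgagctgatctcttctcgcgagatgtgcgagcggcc
In the Atp5h window the capitals mark 1 match to the NRF1 motif (GCGCA, any base, then GCGC) and 1 match to the ETS motif CCGGAAG on the opposite strand. In the Atp5e window they mark 1 ETS match on the opposite strand and 2 matches to the SP1 motif GGGCGG, and in the Atp5f1 window 2 SP1 matches. Both strands were searched, and no 2 matches overlapped in these 3 windows. Of the genes with the same pattern as Atp5h and Atp5e that are not shown, Atp5d and Atp5o had 0 matches to any searched motif. The window of Atp5b had 2 SP1 matches and none to the other motifs. RefSeq windows were matched for 9 of the 10 genes, with 12 windows in all, since a gene can have several. The gene without a matched window was Atp5a1, so the motif counts do not cover it. The NRF1 motif stood in 3 of these 12 windows (of Atp5h, Atp5c1 and Atp5k), against 3.74% of all 32851 windows. The ETS motif stood in 3 of the 12 windows (of Atp5h, Atp5e and Atp5j), against 6.91% of all windows, and the SP1 motif in 4, against 32.7%. The YY1 motif AANATGGCG stood in 1 of the 12, a window of Atp5j, against 1.12%. The ESRRA motif AAGGTCA stood in 0 of the 12, against 4.08%. These are matches of letters, and nothing here measured binding.

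All 10 genes were abundant. Their mean over the 6 profiles lay between 98.5 FPKM for Atp5k, at the 97.4th percentile of the 21125 genes, and 581 FPKM for Atp5b, at the 99.5th percentile, and all 10 passed the filter of at least 1 FPKM in at least 3 profiles that left 10634 genes for testing. The order of mean levels from the highest down was Atp5b, Atp5c1, Atp5f1, Atp5e, Atp5a1, Atp5h, Atp5o, Atp5j, Atp5d and Atp5k. Of the neighbours in that order, Atp5e and Atp5a1, Atp5a1 and Atp5h, and Atp5h and Atp5o differed in mean by less than the SD over the profiles of at least one of the pair. The genes differed more in how much they varied. The highest profile was 4.11 times the lowest for Atp5a1, 1.89 times for Atp5e, 1.74 times for Atp5h, 1.45 times for Atp5b, 1.34 times for Atp5d and 1.25 times for Atp5o. For Atp5k, Atp5j, Atp5f1 and Atp5c1 it was between 1.10 and 1.19 times.

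**Figure D1:**
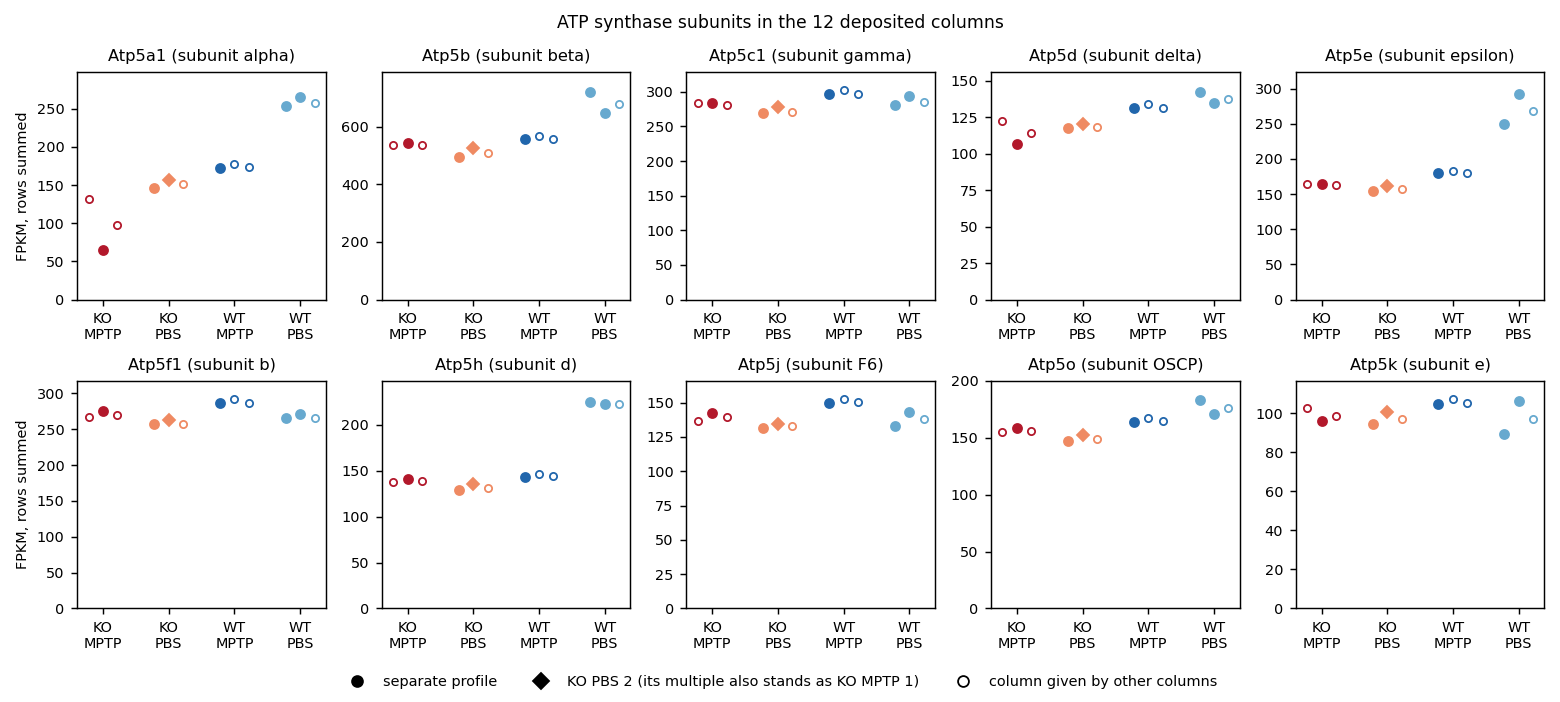
FPKM summed per symbol (vertical axes, from 0) of the 10 subunit genes in the 12 deposited columns, by group, with filled circles for separate profiles, diamonds for KO PBS 2 and open circles for columns that follow from others. Atp5a1, Atp5e and Atp5h are highest in WT PBS, Atp5a1 is lowest in KO MPTP 2 at 64.7 FPKM, and Atp5c1, Atp5f1 and Atp5j lie close together in all groups.

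The head of the enzyme is built from alternating alpha and beta subunits, and the beta subunits carry the catalytic sites. Atp5a1, which encodes alpha, had 64.7 FPKM in KO MPTP 2, 147 and 157 FPKM in KO PBS 1 and 2, 173 FPKM in WT MPTP 1, and 254 and 266 FPKM in WT PBS 1 and 2. The 3 KO profiles lay below the 3 WT profiles, and KO MPTP 2 lay far below all others. The main row of Atp5a1 is one of the 49 that depart from the relations between columns. Over genotype it averaged 123 ± 50.7 FPKM in KO and 231 ± 50.7 FPKM in WT (SD, n = 3 profiles each). Atp5b, which encodes beta, had 542 FPKM in KO MPTP 2, 496 and 527 FPKM in KO PBS 1 and 2, 556 FPKM in WT MPTP 1, and 720 and 648 FPKM in WT PBS 1 and 2. All KO values were under all WT values, with WT MPTP 1 nearest to KO, and KO averaged 522 ± 23.6 FPKM against 641 ± 82.0 FPKM in WT (SD, n = 3 each).

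The central stalk turns inside the head. Atp5c1, which encodes gamma, the shaft itself, had 284 FPKM in KO MPTP 2, 269 and 278 FPKM in KO PBS 1 and 2, 297 FPKM in WT MPTP 1, and 281 and 294 FPKM in WT PBS 1 and 2. These ranges overlapped between genotypes. Atp5d, which encodes delta at the foot of the stalk, had 107 FPKM in KO MPTP 2, 118 and 120 FPKM in KO PBS 1 and 2, 131 FPKM in WT MPTP 1, and 143 and 135 FPKM in WT PBS 1 and 2. It was the second gene, beside Atp5a1, with its lowest profile in KO MPTP 2. Atp5e, which encodes epsilon, the small subunit bound to gamma and delta, had 164 FPKM in KO MPTP 2, 155 and 161 FPKM in KO PBS 1 and 2, 180 FPKM in WT MPTP 1, and 250 and 293 FPKM in WT PBS 1 and 2. The KO profiles and WT MPTP 1 stood together, and both WT PBS profiles stood above them.

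The peripheral stalk runs from the membrane to the top of the head. Atp5h, which encodes subunit d, had 141 FPKM in KO MPTP 2, 129 and 135 FPKM in KO PBS 1 and 2, 144 FPKM in WT MPTP 1, and 225 and 223 FPKM in WT PBS 1 and 2. WT MPTP 1 was again with the KO profiles, and the WT PBS pair was closer together than for any other of the 10 genes, at a log2 difference of -0.01. Atp5o, which encodes OSCP, the link between stalk and head, had 159 FPKM in KO MPTP 2, 147 and 152 FPKM in KO PBS 1 and 2, 164 FPKM in WT MPTP 1, and 183 and 171 FPKM in WT PBS 1 and 2. Its KO values lay under its WT values by a narrow margin. Atp5f1, which encodes the long helical subunit b, had 275 FPKM in KO MPTP 2, 257 and 262 FPKM in KO PBS 1 and 2, 287 FPKM in WT MPTP 1, and 265 and 271 FPKM in WT PBS 1 and 2. Atp5j, which encodes F6, had 142 FPKM in KO MPTP 2, 132 and 134 FPKM in KO PBS 1 and 2, 150 FPKM in WT MPTP 1, and 133 and 143 FPKM in WT PBS 1 and 2. Both overlapped between genotypes and were highest in WT MPTP 1. Atp5k, which encodes subunit e of the membrane part, known for its role in joining enzyme molecules into dimers, had 95.9 FPKM in KO MPTP 2, 94.6 and 100 FPKM in KO PBS 1 and 2, 105 FPKM in WT MPTP 1, and 89.1 and 106 FPKM in WT PBS 1 and 2. The gap between its own WT PBS profiles spanned the others.

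In KO PBS against WT PBS, which asks what the loss of Ppargc1a does without toxin, the head gene Atp5a1, the central stalk gene Atp5e and the peripheral stalk gene Atp5h fell, and the other 7 did not pass the test. The test was limma, with a trend of the variance on the mean, on log2(FPKM + 1) of all 10634 genes. Genes with a Benjamini-Hochberg adjusted p under 0.05 were called, which were 0.226% of genes, all of them lower in KO. An unadjusted p under 0.05 was found for 6 of the 10 and 4.42% of all genes. Atp5a1 fell by 0.82 on the log2 scale (SE 0.08, limma adjusted p = 0.00159), Atp5h by 0.79 (SE 0.08, adjusted p = 0.00165) and Atp5e by 0.80 (SE 0.10, adjusted p = 0.0108). Atp5b had a log2 difference of -0.46 (adjusted p = 0.292), Atp5o of -0.27 and Atp5d of -0.23 (adjusted p = 0.909 for both), and the other 4 genes lay between -0.09 and -0.04. The median of the 10 was -0.25, beside -0.06 over all genes tested. All 10 estimates were below 0, as were 8287 of the 10634 genes, but Atp5f1 and Atp5k moved above 0 when profiles were rescaled by TMM, and Atp5c1, Atp5f1, Atp5j and Atp5k when they were quantile normalized. With 1 residual degree of freedom, which the WT PBS pair supplies, the fit assumes that single profiles vary like that pair. The call of Atp5a1 was lost (adjusted p = 0.959) when the profile KO PBS 2 was counted as KO MPTP, and that of Atp5e when profiles were quantile normalized (adjusted p = 0.21), and with no filter on low values 0 of the 10 genes passed in any comparison. In bulk samples fewer cells of a type and less RNA per cell cannot be told apart.

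In WT MPTP against WT PBS, which asks what the toxin does with Ppargc1a present, Atp5h and Atp5a1 fell and no subunit gene rose. The test called 0.207% of genes lower, 0.047% higher and 0.254% in either direction, and an unadjusted p under 0.05 was found for 4 of the 10 and 2.65% of all genes. Atp5h fell by 0.64 on the log2 scale (SE 0.08, limma adjusted p = 0.0101) and Atp5a1 by 0.59 (SE 0.08, adjusted p = 0.0145). Atp5e differed by -0.58 (SE 0.10), close to the value of Atp5a1, but its adjusted p of 0.0654 missed the threshold, with a log2 difference of 0.23 between its own WT PBS profiles. Atp5b had -0.30, Atp5o -0.11 and Atp5d -0.08, and Atp5c1, Atp5f1, Atp5k and Atp5j lay between 0.05 and 0.12, the last 7 genes all with an adjusted p of 1.0. The median was -0.09, beside 0.04 over all genes tested, and 6 of the 10 estimates were below 0, as were 2869 of the 10634 genes. WT MPTP holds 1 profile, and both comparisons named so far use the same WT PBS pair. With KO PBS 2 counted as KO PBS, 3 genes were called (Atp5a1, Atp5e and Atp5h). In that fit leaving out WT PBS 1 left Atp5e as the only gene called (Atp5a1 adjusted p = 0.0716 and Atp5h adjusted p = 0.0533), and leaving out WT PBS 2 left Atp5h (Atp5a1 adjusted p = 0.0609). Atp5a1 also missed the threshold with KO PBS 2 counted as KO MPTP (adjusted p = 1.0).

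In KO MPTP against KO PBS, which asks what the toxin does where Ppargc1a is lost, Atp5a1 was the only subunit gene that passed the test, and it fell by 1.17 on the log2 scale (SE 0.09, limma adjusted p = 0.000678). The test called 0.0752% of genes lower, 0.216% higher and 0.292% in either direction, and an unadjusted p under 0.05 was found for 1 of the 10 and 9.22% of all genes. Atp5d had a log2 difference of -0.14, and the other 8 genes lay between 0.02 and 0.13, with adjusted p-values between 0.635 and 0.948 for the 9 genes that missed the threshold. The median of the 10 was 0.09, and so was that of all genes tested. Under TMM rescaling the median of all genes was -0.0043, and the estimates of Atp5c1, Atp5e, Atp5f1, Atp5o and Atp5k then lay below 0. Atp5e and Atp5h, which were lower in KO PBS than in WT PBS, had 1.06 and 1.10 times their KO PBS 1 level in KO MPTP 2. KO MPTP 2 and KO PBS 1 are single profiles, so the difference has no replicate check of its own. Its SE and p come from the spread of the WT PBS pair, which is in neither group. limma draws that spread towards the spread of all genes tested (1 residual and 9.01 prior degrees of freedom). For Atp5a1, KO MPTP 2 had 0.44 times the level of KO PBS 1. Counting KO PBS 2 as a second KO MPTP profile gave a log2 difference of -0.53 (adjusted p = 0.886), and counting the deposited column KO MPTP 1 in that place gave -0.66 (adjusted p = 0.592).

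In KO MPTP against WT MPTP, which asks what the loss of Ppargc1a does under toxin, Atp5a1 was again the only subunit gene called, and it fell by 1.40 on the log2 scale (SE 0.09, limma adjusted p = 0.000352). The test called 0.0658% of genes lower and 0.103% in either direction, and an unadjusted p under 0.05 was found for 2 of the 10 and 3.59% of all genes. Atp5d followed with -0.29 (SE 0.09, adjusted p = 0.747), and the other 8 genes lay between -0.13 and -0.02, with adjusted p-values of 1.0. All 10 estimates were below 0, as were 5700 of the 10634 genes, but those of Atp5b, Atp5c1, Atp5h and Atp5o moved above 0 under quantile normalization. The median was -0.07, beside -0.01 over all genes tested. Both groups hold 1 profile, KO MPTP 2 and WT MPTP 1, so here too the difference has no replicate check of its own. Its SE and p again come from the spread of the WT PBS pair, which is in neither group, drawn towards that of all genes tested. With KO PBS 2 counted as KO MPTP the log2 difference of Atp5a1 was -0.77 (adjusted p = 1.0).

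The interaction, which is the MPTP difference in KO minus that in WT, passed for 0 of the 10 genes by limma, with 0.0752% of all genes called. Unadjusted p-values under 0.05 were found for 4 of the 10 and 5.17% of all genes. Atp5h had the interaction of largest size, 0.77 on the log2 scale (SE 0.12, adjusted p = 0.0802), followed by Atp5e with 0.66 (SE 0.16, adjusted p = 0.278), Atp5a1 with -0.58 (SE 0.12, adjusted p = 0.219) and Atp5b with 0.42 (adjusted p = 0.767). The sign was thus positive for Atp5h, Atp5e and Atp5b, whose MPTP difference was near 0 in KO for Atp5e and at 0.13 for Atp5h and Atp5b, and negative for all 3 in WT, and it was negative for Atp5a1. The interaction of Atp5h passed in 7 of 18 alternatives, with adjusted p between 1.64e-07 and 0.368, and that of Atp5a1 turned to 0.05 when KO PBS 2 was counted as KO MPTP. For Atp5h, the limma adjusted p-values of 1.64e-07 and 2.98e-06 came from fits of all 12 columns, which treat computed columns as replicates. That the MPTP difference of these genes differs between genotypes was therefore not shown at the threshold.

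**Figure D2:**
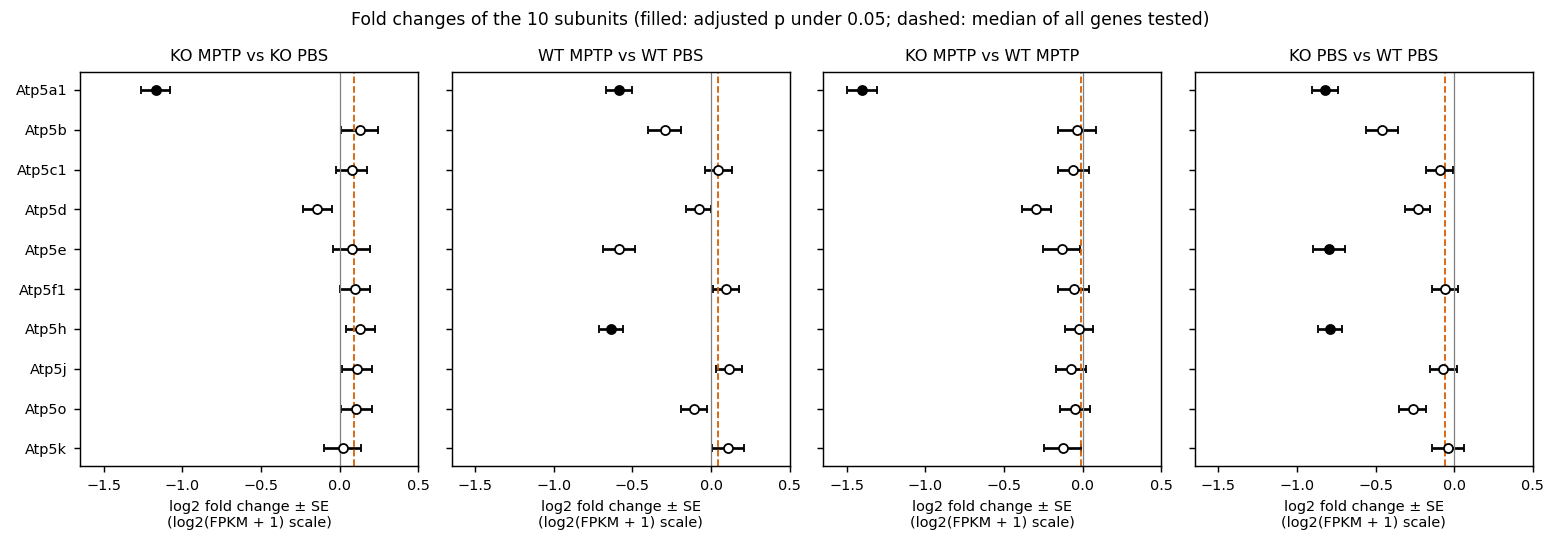
log2 fold changes with their standard errors (horizontal axis, on the log2(FPKM + 1) scale) of the 10 subunit genes in 4 comparisons, with filled points for an adjusted p under 0.05 and a dashed line at the median of all genes tested. Atp5a1 is the only filled point in both KO MPTP panels, at -1.17 and -1.40, while Atp5a1 and Atp5h are filled in the WT MPTP panel and Atp5a1, Atp5e and Atp5h in the KO PBS panel.

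Genotype was also compared over all 6 profiles, 3 KO against 3 WT, in a fit chosen after the values were seen. Neither this fit nor the permutation test below has a term for treatment. WT holds WT PBS 1, WT PBS 2 and WT MPTP 1, and KO holds KO PBS 1, KO MPTP 2 and KO PBS 2, which stands under both treatments. The treatments are thus unequal between genotypes, so genotype and treatment cannot be fully told apart here. In 6 of the 10 genes (Atp5a1, Atp5b, Atp5d, Atp5e, Atp5h and Atp5o) every KO profile was below every WT profile, a pattern of 7.19% of the 10634 genes, and the reverse pattern was found in 0 of the 10 and 0.818% of genes. The same 6 genes had all 4 other profiles below both WT PBS profiles, a pattern of 3.89% of genes as deposited, 7.35% under TMM rescaling and 7.31% under quantile normalization, each time with these 6 genes. Under TMM rescaling the first pattern again held for these 6 genes (4.75% of all genes), and under quantile normalization for Atp5a1, Atp5d and Atp5e (4.83% of all genes). An exact two-sided permutation test gave p = 0.1 for each of the 6, the smallest p that 3 against 3 profiles can give, and p between 0.2 and 0.7 for Atp5c1, Atp5f1, Atp5j and Atp5k. By limma, 0 of the 10 genes passed, against 0.0376% of all genes called, and 6 of the 10 had an unadjusted p under 0.05, beside 3.49% of all genes. The log2 difference was -0.98 for Atp5a1 (SE 0.22, adjusted p = 0.127), -0.56 for Atp5e (SE 0.11, adjusted p = 0.0759), -0.51 for Atp5h (SE 0.11, adjusted p = 0.127), -0.29 for Atp5b (adjusted p = 0.268), -0.24 for Atp5d (adjusted p = 0.169) and -0.18 for Atp5o (adjusted p = 0.789). The median was -0.21, beside -0.03 over all genes tested. Leaving out 1 profile at a time gave between 0 and 4 calls, with 4 (Atp5a1, Atp5b, Atp5e and Atp5h) without WT MPTP 1, 3 (Atp5a1, Atp5e and Atp5h) without WT PBS 1 or without KO PBS 2, 1 (Atp5a1) without KO PBS 1, and 0 without WT PBS 2 or without KO MPTP 2.

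The ratio of FPKM differed between profiles in the pairs of neighbouring subunits taken here, each of which holds a gene called in at least 1 comparison. Not all subunits of a stalk parted in this way. Atp5f1 and Atp5j of the peripheral stalk had nearly the same pattern over the profiles, as given below. The ratio of Atp5h to Atp5f1, the d and b subunits of the peripheral stalk, was 0.514 in KO MPTP 2, 0.501 and 0.515 in KO PBS 1 and 2, 0.501 in WT MPTP 1, and 0.846 and 0.822 in WT PBS 1 and 2. The ratio of Atp5e to Atp5c1, neighbours in the central stalk, was 0.576 in KO MPTP 2, 0.576 and 0.58 in KO PBS 1 and 2, 0.607 in WT MPTP 1, and 0.888 and 0.995 in WT PBS 1 and 2. In both ratios the WT PBS profiles stood above the other 4, which lay close to one another. The ratio of Atp5a1 to Atp5b in the head was 0.119 in KO MPTP 2, 0.296 and 0.299 in KO PBS 1 and 2, 0.311 in WT MPTP 1, and 0.353 and 0.411 in WT PBS 1 and 2, so it was set apart by KO MPTP 2 more than by WT PBS. A ratio within a profile does not depend on how that profile was scaled, and it shows unequal change between 2 genes without showing which of them changed.

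**Figure D3:**
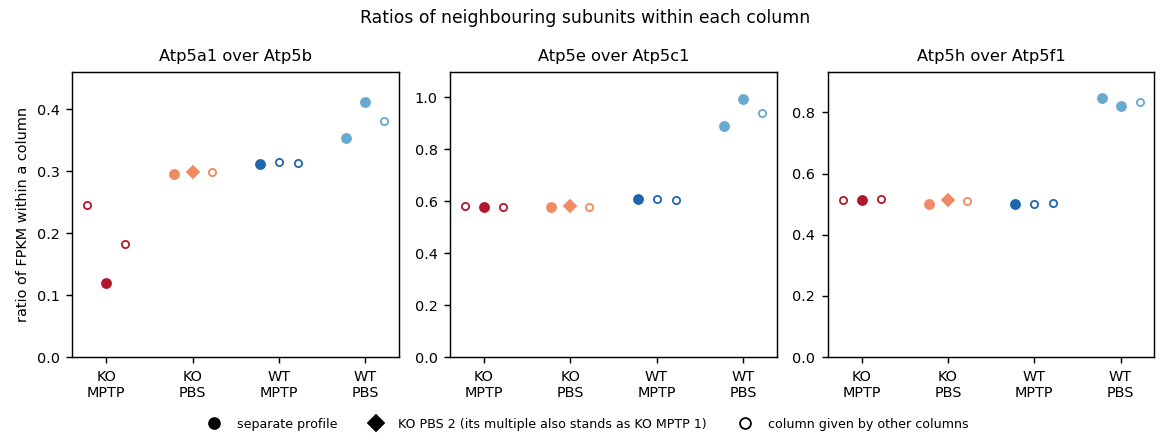
Ratio of FPKM of 2 neighbouring subunits within each deposited column (vertical axes, from 0), by group, with the same symbols as in the plot of FPKM by column. The ratios of Atp5e to Atp5c1 and of Atp5h to Atp5f1 are near 0.58 and 0.51 in KO columns and above 0.82 in WT PBS, and the ratio of Atp5a1 to Atp5b is lowest in KO MPTP 2 at 0.119.

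The patterns of single genes over the 6 profiles were compared by the root mean square difference of log2(FPKM + 1) after each gene was centred on its own mean. Among the 10 genes, Atp5c1, Atp5f1 and Atp5j formed the closest group, with differences between 0.02 and 0.03 in their 3 pairs. Atp5e and Atp5h differed by 0.08 and Atp5b and Atp5o by 0.09. Atp5a1 stood farther off, 0.48 from its nearest, Atp5e. Among 10017 other genes tested, the nearest to Atp5h were Nfs1 (0.05), a cysteine desulfurase of iron-sulfur cluster assembly, Apoa2 (0.06), an apolipoprotein, and Slc27a4 (0.10), a fatty acid transport protein. The nearest to Atp5e were Apoa2 (0.07), Nfs1 (0.08) and Slc27a4 (0.12), the same 3 genes in another order. Nfs1 had 38.3 FPKM in KO MPTP 2, 35.8 and 35.5 FPKM in KO PBS 1 and 2, 39.1 FPKM in WT MPTP 1, and 57.4 and 57.8 FPKM in WT PBS 1 and 2, the same order of groups as Atp5h, while Apoa2 was near the filter, between 1.37 and 3.26 FPKM. The nearest to Atp5a1 were Acsl1 (0.19), a fatty acyl-CoA synthetase, Gsk3a (0.24), a protein kinase, and Cox6c (0.29), a subunit of cytochrome c oxidase. Likeness here rests on 6 values a gene and says nothing of shared control.

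Most genes were carried by 1 row of the table, and the sources used here do not say what a row stands for. Of the 63 rows, 17 averaged at least 10 FPKM, and the other 46 averaged at most 5.35 FPKM. The highest row held 99.6% of Atp5e, 98.2% of Atp5k, 98.1% of Atp5a1, 96.8% of Atp5d and 92.1% of Atp5b, but 64.6% of Atp5h and 61.7% of Atp5f1. In Atp5h the difference between groups sat in 1 of its 2 abundant rows. The row Atp5h_7 had 71.6 FPKM in KO MPTP 2, 80.7 and 72.4 FPKM in KO PBS 1 and 2, 81.7 FPKM in WT MPTP 1, and 164 and 174 FPKM in WT PBS 1 and 2. The row Atp5h_2 had 57.4 FPKM in KO MPTP 2, 42.1 and 56.3 FPKM in KO PBS 1 and 2, 54.5 FPKM in WT MPTP 1, and 53.4 and 44.2 FPKM in WT PBS 1 and 2. The log2 difference was -1.05 for Atp5h_7 and -0.20 for Atp5h_2 in KO PBS against WT PBS, and -1.04 and 0.16 in WT MPTP against WT PBS. The rows of Atp5o did not move together. Atp5o_2 had 112 FPKM in KO MPTP 2, 101 and 110 FPKM in KO PBS 1 and 2, 115 FPKM in WT MPTP 1, and 138 and 129 FPKM in WT PBS 1 and 2, whereas the low row Atp5o_5 had 4.99 FPKM in KO MPTP 2, 15.1 and 10.3 FPKM in KO PBS 1 and 2, 16.0 FPKM in WT MPTP 1, and 7.58 and 8.66 FPKM in WT PBS 1 and 2. In Atp5b the row Atp5b_7 followed the gene, with 495 FPKM in KO MPTP 2, 454 and 478 FPKM in KO PBS 1 and 2, 507 FPKM in WT MPTP 1, and 678 and 601 FPKM in WT PBS 1 and 2, while Atp5b_5 stayed between 36.4 and 43.9 FPKM.

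Fitted row by row over 19093 rows, 0 of the 17 abundant subunit rows passed in any comparison, and limma called 0% of all rows. Unadjusted p-values under 0.05 were found for 6 of the 17 rows in KO PBS against WT PBS, beside 4.86% of all rows, and for 5 in WT MPTP against WT PBS, beside 3.39%. They were found for 3 rows in KO MPTP against KO PBS, beside 7.36% of all rows, and for 3 in KO MPTP against WT MPTP, beside 5.31%. For the interaction they were 4 rows, beside 5.53%, and over the 6 profiles 7 rows, beside 5.24%. As no row of any gene passed, this fit separates no row from the rest. In KO PBS against WT PBS the log2 difference was -0.85 for Atp5a1_1, -0.80 for Atp5e_2 and -1.05 for Atp5h_7, and that of Atp5a1_1 was -1.20 in KO MPTP against KO PBS and -1.46 in KO MPTP against WT MPTP. Reads of some of these genes could also be assigned to named pseudogenes, and their levels are uncertain to that extent. In the reference 4 pseudogenes carry the name of Atp5k, 1 that of Atp5c1 and 1 that of Atp5pb, the reference symbol of Atp5f1. None of these genes was called, and 0 pseudogenes carry the name of Atp5a1, Atp5e or Atp5h. Pseudogenes under other names were not counted, so a count of 0 does not show that a gene has none.

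**Figure D4:**
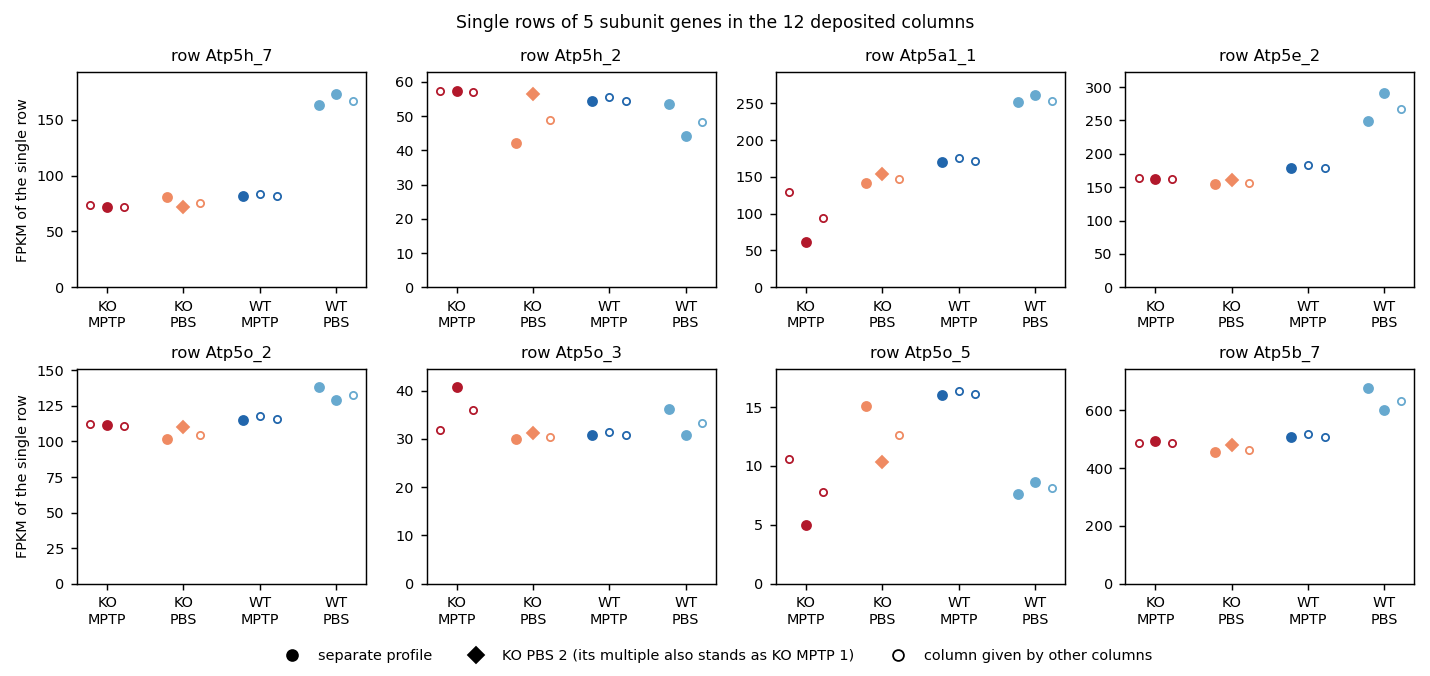
FPKM (vertical axes, from 0) of 8 single rows of 5 subunit genes in the 12 deposited columns, by group, with the same symbols as in the plot of FPKM by column. Row Atp5h_7 is above 160 FPKM in WT PBS and at most 83.3 FPKM elsewhere, while row Atp5h_2 overlaps between groups, and row Atp5o_5 is highest in WT MPTP.

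Of the rows of these 10 genes, Atp5a1_1 was the only one off the relations between columns, and it carries 98.1% of Atp5a1. Its deposited value in KO MPTP 1 was 129.62 FPKM, where 1.02 times KO PBS 2 gives 157.62 FPKM, and in WT MPTP 2 it was 176.42 FPKM, where 1.02 times WT MPTP 1 gives 174.42 FPKM. Summed per gene, Atp5a1 had 132, 64.7 and 98.1 FPKM in the 3 KO MPTP columns, 147, 157 and 151 FPKM in KO PBS, 173, 178 and 174 FPKM in WT MPTP, and 254, 266 and 258 FPKM in WT PBS. In all, 49 rows of 42 genes were off, 40 of these genes were tested, and Atp5a1 was the only one of the 10. Acsl1, Gsk3a and Cox6c, whose patterns were nearest to that of Atp5a1, were all among the 42 genes, and Nfs1, Apoa2 and Slc27a4 were not. How the departures bear on the values of Atp5a1 in the separate profiles was not tested. Without the 42 genes, which removes Atp5a1 itself and its calls with it, 1 subunit gene (Atp5h) was called in WT MPTP against WT PBS, 2 (Atp5e and Atp5h) in KO PBS against WT PBS, and 0 in both KO MPTP comparisons.

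The remaining genes of the enzyme did not follow Atp5a1, Atp5e or Atp5h past the threshold. A list of 15 further genes held the ring genes Atp5g1, Atp5g2 and Atp5g3, other membrane subunits, the mitochondrially encoded mt-Atp6 and mt-Atp8, the inhibitor Atpif1, assembly factors and related genes. All 15 were tested, and limma called 0 of the 15 in each comparison, also with 0 at an unadjusted p under 0.05. Their median log2 difference was -0.06 in KO PBS against WT PBS, 0.09 in WT MPTP against WT PBS, 0.04 in KO MPTP against KO PBS and -0.08 in KO MPTP against WT MPTP. Their values ran between -0.20 and 0.12 in KO PBS against WT PBS and between -0.06 and 0.24 in WT MPTP against WT PBS. The highest was mt-Atp6, which encodes the proton channel subunit a, with 5331 FPKM in KO MPTP 2, 5229 and 4927 FPKM in KO PBS 1 and 2, 5607 FPKM in WT MPTP 1, and 5010 and 4646 FPKM in WT PBS 1 and 2. mt-Atp8, its neighbour in mitochondrial DNA, lay between 2606 and 3140 FPKM, Usmg5, a membrane subunit known for dimer formation, between 297 and 338 FPKM, and Atp5g3 between 243 and 277 FPKM. The 7 nuclear subunits outside the 10 lay between -0.13 and -0.02 on the log2 scale in KO PBS against WT PBS.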

How the data were processed

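RNA-seq of sorted midbrain microglia was analysed from 1 table that the authors deposited, of 67355 rows by 12 columns, 1 for each sample. The submitters' processing notes name the build mm9 and the tools Cufflinks, TopHat, Bowtie 0.12.7 and CASAVA 1.5. No header gives a unit, and the deposited values were taken as FPKM, since Cufflinks writes it. No source used here gives the filters or the annotation.

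From these values, rows were summed per symbol (1 row with a text cell was left out), and columns were tested for relations within 0.0101 FPKM (multiples) or 0.00995 FPKM (means). limma 3.58.1 in R 4.3.3 was fitted on log2(FPKM + 1) to 5 profiles, with 9.01 prior degrees of freedom, and tested on simulated data. The pseudocount makes fold changes of low genes too small. Named genes were all 10 members, the 4 highest of the 15 further genes, and for each called member the 3 nearest patterns, without predicted genes and small RNAs. The members, lists and tests were chosen with earlier results of these data known. A marker gene of the microglial list is not reported here. The comparison over 6 profiles and the fit of single rows were added after the values were seen. Alternatives were other pseudocounts, filters, scalings, column choices, a replicate block and left-out profiles.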

Additional observations from a re-analysis of the deposited data

Results flagged for a closer look

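The row Atp5a1_1, which carries nearly all of Atp5a1, departed from the relations that the remaining columns and rows of these 10 genes follow. In KO MPTP 1 its deposited value was -28.001 FPKM from the value that KO PBS 2 gives, and in WT MPTP 2 it was 2.0 FPKM above the value that WT MPTP 1 gives. Neither column enters the fits behind the values given first in the report. KO MPTP 1 was used in the alternative that counts it as KO MPTP, and both in the alternatives with 12 columns. The departures were singled out because no other row of the 10 genes was off any relation.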

How the results depend on the processing

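Fold changes of called genes, summed over their rows or taken from the highest row, kept their direction under every alternative that gave them a value, while the calls depended on the settings. Of the single rows of Atp5h, Atp5h_2 had a log2 difference of 0.16 in WT MPTP against WT PBS, where the summed gene was lower. Atp5a1 is itself among the genes off the relations, so its calls are lost by construction where these are left out. The number of subunit genes called in WT MPTP against WT PBS was 2, and it was 0 with no filter, 0 with the highest row per symbol, 0 with single rows, 1 without the genes off the relations, 7 with 12 columns as libraries, 3 with KO PBS 2 counted as KO PBS, and 1 to 2 when in addition a profile was left out. In KO MPTP against KO PBS it was 1, and 0 with no filter, the highest row, single rows, KO PBS 2 or the column KO MPTP 1 counted as KO MPTP, 12 columns, or no genes off the relations. In KO PBS against WT PBS it was 3, and 0 with no filter, 0 with single rows, 1 with the highest row, 7 with 12 columns, 4 with KO PBS 2 counted as KO PBS, and 3 to 4 when in addition a profile was left out. In KO MPTP against WT MPTP it was 1, and 0 with no filter, the highest row, single rows, KO PBS 2 or the column KO MPTP 1 counted as KO MPTP, or no genes off the relations, and 6 with 12 columns. For the interaction it was 0, and 1 with a filter at 5 FPKM, 2 with TMM, 1 with KO PBS 2 counted as KO PBS or as KO MPTP, 1 with the column KO MPTP 1 as KO MPTP and 3 with 12 columns. For KO against WT over 6 profiles it was 0, and 4 with a filter at 5 FPKM, 6 with 12 columns and 0 to 4 when a profile was left out. Fits of 12 columns treat columns without error of their own as replicates, and with no filter the prior degrees of freedom were 0.715. Where not given, the cause was not tested.

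WT PBS and KO PBS share replicate numbers 1 and 2, and the deviations of same-numbered profiles correlated at 0.227 over 10634 genes. With 2 pairs the samples share only a number. With the replicate block and KO PBS 2 as KO PBS, the counts of the first 5 comparisons, in the order above, were 2, 1, 3, 1 and 0, against 3, 1, 4, 1 and 1 in the same fit without the block. The block ended the calls of Atp5e in WT MPTP against WT PBS (adjusted p = 0.0629) and of Atp5h in the interaction (adjusted p = 0.121). With the block and 12 columns they were 8, 5, 9, 7 and 4, and with the block 4 genes passed in KO against WT over 6 profiles.

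Of the 60 fold changes (10 genes in 6 comparisons), 24 changed sign under at least 1 alternative, all of them of genes not called in that comparison, and counted once for each alternative these were 62. Under TMM these were Atp5c1 (-0.032), Atp5e (-0.03), Atp5f1 (-0.012), Atp5o (-0.001) and Atp5k (-0.089) in KO MPTP against KO PBS, Atp5f1 (0.008) and Atp5k (0.029) in KO PBS against WT PBS, and Atp5c1 (-0.033) and Atp5f1 (-0.063) in the interaction. Under quantile normalization these were Atp5e (-0.01) and Atp5k (-0.084) in KO MPTP against KO PBS, Atp5c1 (0.018), Atp5f1 (0.053), Atp5j (0.025) and Atp5k (0.05) in KO PBS against WT PBS, Atp5b (0.048), Atp5c1 (0.024), Atp5h (0.027) and Atp5o (0.008) in KO MPTP against WT MPTP, Atp5f1 (-0.067) in the interaction, and Atp5c1 (0.029), Atp5f1 (0.032), Atp5j (0.015) and Atp5k (0.017) over 6 profiles. With the highest row these were Atp5f1 (-0.005) and Atp5h (-0.17) in KO MPTP against KO PBS, Atp5f1 (0.03) in KO PBS against WT PBS, and Atp5c1 (-0.016) and Atp5f1 (-0.127) in the interaction. With KO PBS 2 as KO PBS these were Atp5k in KO MPTP against KO PBS (-0.023) and in KO PBS against WT PBS (0.004) and Atp5f1 in the interaction (-0.012). Adding the replicate block gave Atp5e (-0.02) and Atp5k (-0.107) in KO MPTP against KO PBS, Atp5k (0.004) in KO PBS against WT PBS, and Atp5c1 (-0.044) and Atp5f1 (-0.041) in the interaction. With 12 columns, with or without the block, these were Atp5k (0.003) in KO PBS against WT PBS, and Atp5c1 (-0.006), Atp5d (0.01) and Atp5f1 (-0.046) in the interaction. With KO PBS 2 as KO MPTP these were Atp5a1 (0.052), Atp5d (0.024) and Atp5f1 (-0.032) in the interaction, and with the column KO MPTP 1 in its place Atp5d (0.038) and Atp5f1 (-0.018). With KO PBS 2 as KO PBS and 1 profile left out, Atp5k lay between -0.016 and 0.233 in WT MPTP against WT PBS, Atp5k lay between -0.066 and -0.023 in KO MPTP against KO PBS, Atp5k lay between -0.12 and 0.129 in KO PBS against WT PBS, Atp5c1 lay between -0.022 and 0.042 in the interaction, Atp5f1 lay between -0.027 and 0.004 in the interaction, and Atp5j lay between -0.072 and 0.036 in the interaction. With 1 profile left out and no other change, Atp5k lay between -0.12 and 0.005 over 6 profiles. With KO PBS 2 as KO PBS and without KO PBS 1, Atp5k was at 0.047 in KO PBS against WT PBS and Atp5f1 at -0.026 in the interaction. The read depth is unknown, so no counting error is given.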
